A study of Homo sapiens with 33 samples.

Results

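The nuclear genes that build respiratory complex II, respiratory complex III and ATP synthase were followed in human cancer cells without intact GABPB1, which is part of the transcription factor GABP. The 37 genes were chosen by name, as entries of the 3 tables of differential expression that the authors deposited, and every one of them was listed in each table. They are 6 genes of complex II (SDHA, SDHB, SDHC, SDHD and the assembly factors SDHAF1 and SDHAF2), 13 of complex III and 18 of ATP synthase, out of the A-375 total-knockout, UM-UC-3 and A-375 long-form tables with 14332, 13310 and 14160 entries. ATP synthase genes carry their older names, as the tables write them. RNA sequencing was done on 33 libraries of A-375 melanoma cells and UM-UC-3 bladder cancer cells. Edited cells had been made with plasmid-borne Cas9 and guide RNAs, sorted for GFP and grown from single cells, so each edited library comes from a single clone. B1KO clones lack exons 2 to 9 of GABPB1 (4 A-375 libraries from 4 clones, 4 UM-UC-3 libraries from 4 clones). B1X2KO clones lack exon 2 (8 A-375 libraries from 5 clones, 5 UM-UC-3 libraries from 4 clones). The authors set both kinds together as the total knockout, which gives 12 libraries from 9 clones in A-375 and 9 libraries from 8 clones in UM-UC-3. B1LKO clones, made in A-375 only, lack exon 9 (2 libraries from 2 clones), which the long form of GABPB1 uses, and are called the long-form knockout here. ROSA26_KO clones, edited at a control locus, gave 4 A-375 and 3 UM-UC-3 libraries, and parental cells gave 2 and 1.

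Complex II, or succinate dehydrogenase, oxidises succinate in the citric acid cycle and passes the electrons to coenzyme Q. Complex III takes them from reduced coenzyme Q to cytochrome c and pumps protons, and ATP synthase lets the protons flow back through a rotating ring of c subunits to make ATP. All subunits of complex II are encoded in the nucleus, whereas complex III and ATP synthase each also hold subunits made from mitochondrial DNA. GABP, also known as nuclear respiratory factor 2, pairs GABPA, which binds ETS motifs with a GGAA core, with a B subunit, and many nuclear genes of respiration carry such motifs at their start.

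Each gene had 1 fitted log2 fold change of knockout over control with its standard error (SE) in each table, without values for single libraries. Depth per sample is therefore unknown, and the SE alone carries the spread between libraries. A gene was called higher or lower where the authors' DESeq2 adjusted p was under 0.05. The names of the tables set each knockout over parental cells, but the sources used here do not list the control libraries of the fits, and with parental cells alone UM-UC-3 would have 1 control library. Libraries of the same clone are not independent cultures of different clones, and p-values then measure only the spread between these libraries. In the authors' deposited tables GABPB1L, the long form, was at -10.60 in the A-375 total knockout, -12.60 in UM-UC-3 and -12.79 in the long-form knockout, sizes that have no fold meaning where 1 group is near 0. The short form GABPB1S was at -9.81, -9.86 and 13.95 in the authors' deposited tables, so the A-375 tables differ on it: the entry was near 0 in the knockout libraries of the first and near 0 in the control libraries of the long-form table. No source used here says whether this transcript entry is named alike in both, so the value is not used as a check of the long-form knockout. Of 9 melanocyte markers 6 were listed in each table, and SOX10 had a mean normalized count of 14704 for the A-375 total knockout and 93.6 for UM-UC-3 in the authors' deposited tables. The tables were normalized separately, so these counts do not measure a difference between the lines. TYR was not listed in the A-375 tables. Of 14 urothelial markers 7 were listed for UM-UC-3, among them KRT7, KRT8 and KRT18 but not UPK2 or UPK3A. For the A-375 total and long-form knockouts 6 of the 14 were listed, with KRT7, KRT8 and KRT18 among them. Only UPK1A was listed for UM-UC-3 alone, so the urothelial listings did not clearly separate the lines. Medians over all genes were -0.05 in the A-375 total knockout, 0.03 in UM-UC-3 and 0.02 in the long-form knockout.

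RefSeq promoter windows (GRCh38.p14, 250 bases before to 50 after a gene start) were found for 30 of the 37 genes, and not for SDHC, CYC1, UQCRB, ATP5B, ATP5D, ATP5G3 and ATP5J2. The windows were searched on both strands for CCGGAAG and GGAAGTG, ETS motifs that can overlap each other and that read CTTCCGG and CACTTCC on the other strand. At least 1 of them stood in a window of 13 of the 30 genes (43.3%), against 26.3% of 15843 protein-coding genes with windows of the same length. Counted by window, since 4 of the 30 genes have more than 1, the shares were 40.5% and 20.9%. CCGGAAG alone was in 11 of 30 (36.7% against 16.5%) and GGAAGTG in 8 of 30 (26.7% against 15.9%). A match is a description of the sequence and not a site shown to be bound. The windows of 5 genes to which the results return are given 5′ to 3′ on the gene's strand, with the motifs in capitals. They are SDHAF1 (chr19:35994938-35995237, plus strand), which was lower in both cell lines, SDHAF2 (chr11:61429874-61430173, plus), which was not, UQCRQ (chr5:132866392-132866691, plus), whose change differed most between the lines, ATP5J (chr21:25734855-25735154, minus, the downstream of its windows), which starts beside GABPA, and ATP5L (chr11:118401356-118401655, plus), called in opposite directions in the cell lines.
SDHAF1: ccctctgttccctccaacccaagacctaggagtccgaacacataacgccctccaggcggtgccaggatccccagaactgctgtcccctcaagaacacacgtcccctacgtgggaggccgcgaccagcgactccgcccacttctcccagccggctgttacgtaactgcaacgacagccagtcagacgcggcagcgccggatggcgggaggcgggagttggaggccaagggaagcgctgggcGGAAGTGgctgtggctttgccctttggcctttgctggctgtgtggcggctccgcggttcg
SDHAF2: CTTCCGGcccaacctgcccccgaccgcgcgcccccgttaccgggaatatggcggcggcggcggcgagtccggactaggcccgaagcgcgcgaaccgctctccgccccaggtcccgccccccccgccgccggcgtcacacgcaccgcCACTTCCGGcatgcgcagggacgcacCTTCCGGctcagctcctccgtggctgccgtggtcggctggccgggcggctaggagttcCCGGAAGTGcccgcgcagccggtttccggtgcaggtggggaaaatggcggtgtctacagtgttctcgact
UQCRQ: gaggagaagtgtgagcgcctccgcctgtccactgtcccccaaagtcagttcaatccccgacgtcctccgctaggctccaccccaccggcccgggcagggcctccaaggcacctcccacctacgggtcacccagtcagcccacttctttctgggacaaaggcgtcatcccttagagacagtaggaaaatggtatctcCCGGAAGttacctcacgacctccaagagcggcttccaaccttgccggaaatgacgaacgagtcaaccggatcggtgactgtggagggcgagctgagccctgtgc
ATP5J: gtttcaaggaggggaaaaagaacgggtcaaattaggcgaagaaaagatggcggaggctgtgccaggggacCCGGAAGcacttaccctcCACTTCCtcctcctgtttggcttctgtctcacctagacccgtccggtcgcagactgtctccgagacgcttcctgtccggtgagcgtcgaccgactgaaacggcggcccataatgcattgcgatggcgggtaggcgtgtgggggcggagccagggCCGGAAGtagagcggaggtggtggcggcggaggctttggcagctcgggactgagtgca
ATP5L: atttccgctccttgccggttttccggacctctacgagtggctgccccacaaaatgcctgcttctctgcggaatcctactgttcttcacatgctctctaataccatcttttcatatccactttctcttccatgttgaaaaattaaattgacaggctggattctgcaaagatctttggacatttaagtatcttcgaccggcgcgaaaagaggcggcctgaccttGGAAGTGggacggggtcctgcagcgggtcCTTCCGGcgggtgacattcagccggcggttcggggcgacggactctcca
The SDHAF1 window holds a single match, 10 bases before the gene start, and the UQCRQ window a single one 54 bases before it. The SDHAF2 window holds 6 matches, the most among the 5 windows. They are 4 of CCGGAAG and 2 of GGAAGTG, and each GGAAGTG match overlaps a CCGGAAG match.

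The UM-UC-3 total knockout asked which of these genes follow the loss of GABPB1 in a bladder cancer line. Of the 37 genes, 20 were called lower and 0 higher, and they came from all 3 complexes (DESeq2, adjusted p under 0.05, in the authors' deposited table). Over all genes, 14.2% were called lower and 17.0% higher there. The 37 genes were chosen with earlier results of these data known, so the shares are set side by side as a description. All but UQCRC2 had a negative value, and the median of the 37 was -0.39. Most changes were small: SDHAF1 was the only gene past 2-fold, and 5 of the called genes (SDHAF1, ATP5J2, UQCRQ, ATP5E and ATP5J) were past 1.5-fold. At an unadjusted p under 0.05, 26 were lower and 0 higher, and the authors' q-value under 0.05 gave the same counts. Over all 13310 genes, 2479 were lower and 3004 higher at the unadjusted p, and 2496 and 3015 by the q-value. Subunits made up 18 of the 20 (18 of 28 measured), and assembly factors with the ATP synthase inhibitor the other 2 (2 of 9); whether these shares differ was not tested. The 6 listed melanocyte markers summed to a mean of 716 normalized counts in the authors' deposited table, and MITF (1.47) and DCT (2.20) were higher, as were 4 of 7 listed urothelial markers and the fibroblast marker COL1A1 (1.06), with KRT18 lower (-0.67). Their part in the result was not tested.

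**Figure D1:**
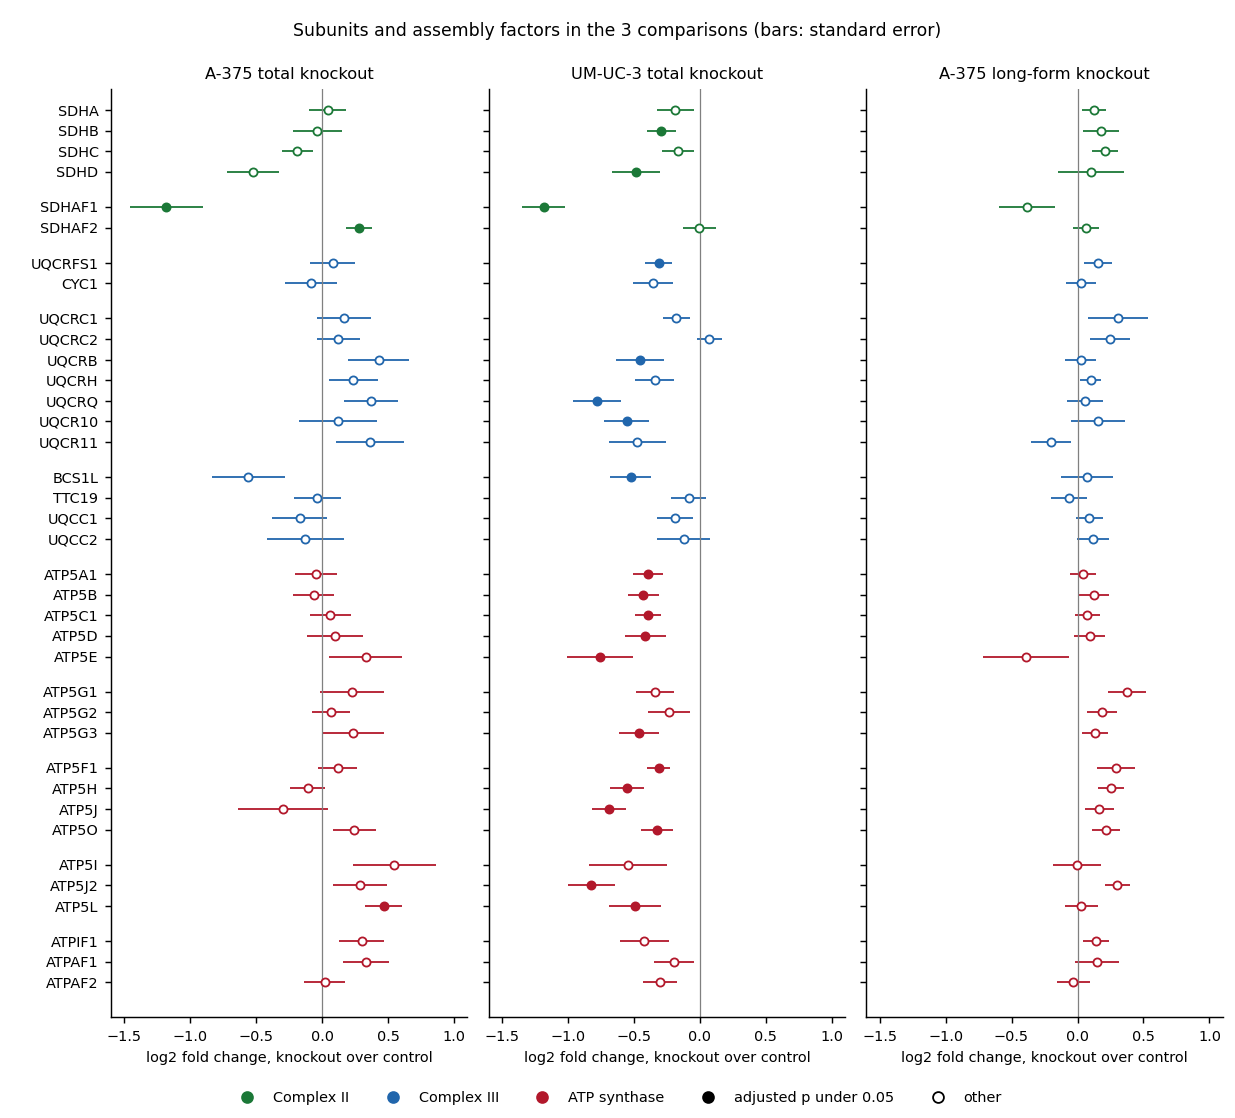
Log2 fold change of knockout over control for the 37 genes in the 3 deposited comparisons, ordered by complex and role, with bars for the authors' standard error and filled points for an adjusted p under 0.05. In the UM-UC-3 panel 36 of 37 points lie left of 0 and 20 are filled, in the A-375 total-knockout panel 3 are filled, and in the long-form panel none is.

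In complex II, the largest change of any member in UM-UC-3 was that of SDHAF1, which helps to insert iron-sulfur clusters into SDHB. Its implied level, worked out from the mean and the fold change in the authors' deposited table, was 714 normalized counts in the control and 314 in the knockout with the parental library as the only control, and 578 and 255 with the ROSA26_KO libraries added. On the log2 scale SDHAF1 fell by 1.18 ± 0.16 (± gives the SE throughout) in the authors' deposited table, with a DESeq2 adjusted p of 8.03e-11. The iron-sulfur subunit SDHB, the client of SDHAF1, fell by 0.29 ± 0.11 in the authors' deposited table (adjusted p 0.0296). SDHD, a membrane anchor, fell by 0.49 ± 0.18 in the authors' deposited table (adjusted p 0.0296), from an implied 5524 to 3943 normalized counts. The flavoprotein SDHA (-0.19, adjusted p 0.323) and the other anchor SDHC (-0.17, adjusted p 0.293) did not pass the test in the authors' deposited table. SDHAF2, which aids the attachment of flavin to SDHA, was at -0.0036 ± 0.12 there, with nearly equal implied levels of 1312 and 1308 normalized counts.

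In complex III, 4 of 9 subunits and 1 of 4 assembly factors were lower in UM-UC-3. UQCRQ, a small subunit without a redox group, went from an implied 5304 to 3090 normalized counts and fell by 0.78 ± 0.18 in the authors' deposited table (adjusted p 0.000285). UQCR10 fell by 0.55 ± 0.17 (adjusted p 0.00656) and UQCRB by 0.46 ± 0.18 in the authors' deposited table (adjusted p 0.0423), both also small subunits. UQCRB has a pseudogene, UQCRBP1, and UQCRH a near copy, UQCRHL, so reads of these genes may have been split. Of the catalytic subunits, the Rieske iron-sulfur protein UQCRFS1 fell by 0.31 ± 0.10 in the authors' deposited table (adjusted p 0.0101), and cytochrome c1, CYC1, stood just outside the threshold at -0.36 ± 0.15 (adjusted p 0.0560). BCS1L, the chaperone that inserts the Rieske protein, fell by 0.53 ± 0.15 in the authors' deposited table (adjusted p 0.00373). The core proteins UQCRC1 (-0.18, adjusted p 0.165) and UQCRC2 (0.07, adjusted p 0.606) and the assembly factors TTC19, UQCC1 and UQCC2 (-0.09 to -0.19) did not pass the test in the authors' deposited table. UQCR11 (-0.48, adjusted p 0.0780) and UQCRH (-0.34, adjusted p 0.0618) did not either.

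ATP synthase had the most calls, with 12 of 15 subunits lower in UM-UC-3. All 5 subunits of F1, the catalytic head, were lower. In the authors' deposited table the alpha subunit ATP5A1 fell by 0.39 ± 0.11 (adjusted p 0.00394), beta ATP5B by 0.43 ± 0.12 (adjusted p 0.00181) and gamma ATP5C1 by 0.40 ± 0.10 (adjusted p 0.000650). Delta ATP5D fell by 0.41 ± 0.15 (adjusted p 0.0260) and epsilon ATP5E by 0.76 ± 0.25 in the authors' deposited table (adjusted p 0.0121). ATP5B had the highest implied control level per length of the 37 genes, 31703 normalized counts per kilobase with the parental library as control, and 58301 normalized counts per gene against 43344 in the knockout. ATP5E has a near copy, ATP5EP2, that may share its reads.

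The peripheral stalk, which holds the F1 head still, was lower in all 4 of its subunits. ATP5J (subunit F6) went from an implied 4567 to 2827 normalized counts and fell by 0.69 ± 0.13 in the authors' deposited table (adjusted p 2.28e-06). ATP5H (subunit d) fell by 0.55 ± 0.13 (adjusted p 0.000159), ATP5F1 (subunit b) by 0.31 ± 0.09 (adjusted p 0.00271) and ATP5O, which links the stalk to F1, by 0.33 ± 0.12 in the authors' deposited table (adjusted p 0.0290). Among the membrane subunits around the ring, ATP5J2 (subunit f) fell by 0.82 ± 0.18 (adjusted p 6.89e-05) and ATP5L (subunit g) by 0.49 ± 0.20 in the authors' deposited table (adjusted p 0.0431). ATP5J2 went from an implied 6814 to 3853 normalized counts, the largest change after SDHAF1. ATP5I (subunit e) was at -0.55 with an SE of 0.29 in the authors' deposited table (adjusted p 0.144), a value of similar size with a wider error.

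ATP5G1, ATP5G2 and ATP5G3 encode the same mature c subunit of the rotating ring, and 1 of the 3 was called. ATP5G3 fell by 0.46 ± 0.15 in the authors' deposited table (adjusted p 0.0109), ATP5G1 was just outside the threshold at -0.34 ± 0.14 (adjusted p 0.0512) and ATP5G2 was at -0.23 ± 0.16 (adjusted p 0.261). Their implied UM-UC-3 control levels per length were 9279, 9000.1 and 16541 normalized counts per kilobase, so ATP5G2, the highest of the 3, had the value nearest 0. Close paralogs can share reads. The inhibitor ATPIF1 (-0.42, adjusted p 0.0694) and the F1 chaperones ATPAF1 (-0.20, adjusted p 0.331) and ATPAF2 (-0.30, adjusted p 0.0597) were not called in the authors' deposited table.

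Many of the 37 genes have short transcripts, and short transcripts stood apart in UM-UC-3. Among other genes with a median annotated coding transcript under 1000 bases, 28.5% were lower there (median -0.21), against 13.4% of longer ones (median 0.05). Of the 20 short members 11 were lower (median -0.46), and of the 17 longer members 9 were (median -0.31), so the members' medians lay below those of other genes in both length classes. After the median of genes of like length was taken away, a step chosen after the data were seen, 11 of the 37 were still lower rather than 20. These 11 are SDHAF1, UQCRFS1, UQCRQ, BCS1L, ATP5A1, ATP5B, ATP5C1, ATP5E, ATP5F1, ATP5J and ATP5J2. The calls of SDHB, SDHD, UQCR10, UQCRB, ATP5D, ATP5G3, ATP5H, ATP5L and ATP5O were not made in that setting, and the uncalled SDHC, SDHAF2, UQCC2 and ATP5G2 then had positive values. In the A-375 total knockout short transcripts lay on the other side, with a median of 0.15 for other short genes and -0.07 for longer ones. Lengths are those of annotated transcripts, which for a gene such as ATP5E (median 1878 bases) may not be the form these cells make. Level was a second trend. The Spearman rho of log2 fold change against log2 mean normalized count was -0.17 over all UM-UC-3 genes. In the long-form knockout it was 0.30. Against length, rho was 0.17 and -0.06. Within the 37 genes, rho against level was 0.12 and 0.23. Their median mean normalized count was 4149 in UM-UC-3 and 4269 in the long-form knockout, against 1370 and 1565 over all genes. Level was not removed and its part was not tested.

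**Figure D2:**
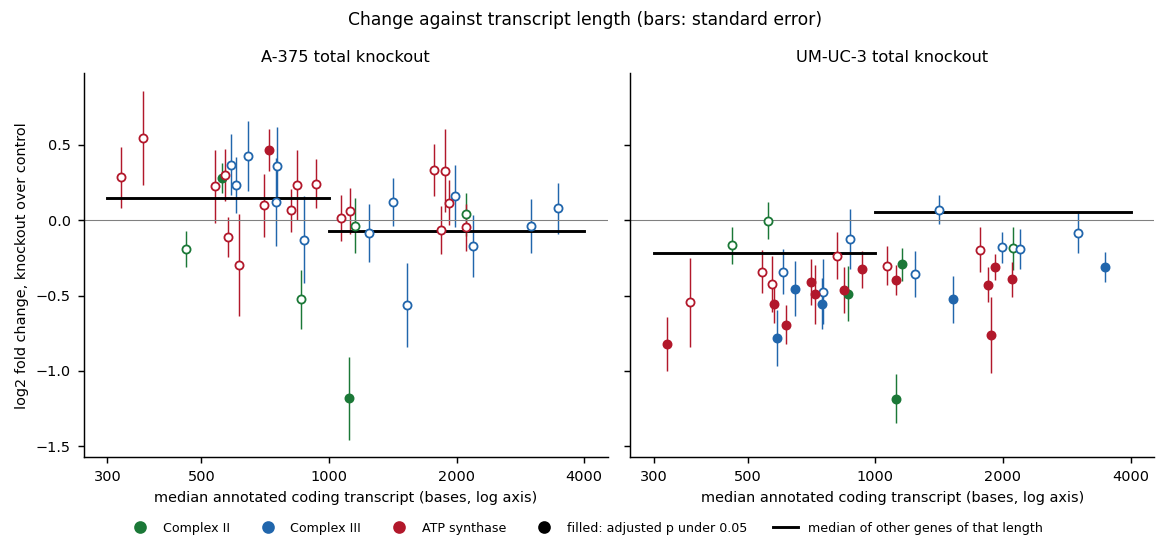
Log2 fold change of the 37 genes (points, bars for the authors' standard error, filled for an adjusted p under 0.05) against the median annotated length of their coding transcripts on a log axis, in the A-375 and UM-UC-3 total knockouts; black lines give the median of all other genes under and over 1000 bases. In UM-UC-3 the line for short genes stands at -0.21 and the median of the short members at -0.46; the line for longer genes stands at 0.05 and the median of the longer members at -0.31. In A-375 the line for short genes stands at 0.15.

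The same comparison in A-375 gave few calls. Of the 37 genes, 1 was lower (2.70%, against 5.74% of all genes) and 2 were higher (5.41%, against 5.07%), shares near or under the background, and the median was 0.10. SDHAF1 was the gene that fell: with the parental libraries as controls its implied level was 426 normalized counts in the control and 188 in the knockout (353 and 156 with the ROSA26_KO libraries added). Its change was -1.18 ± 0.27 in the authors' deposited table (adjusted p 0.000869, DESeq2). The genes that rose were ATP5L, by 0.47 ± 0.14 (adjusted p 0.0140, from an implied 1711 to 2363 normalized counts), and SDHAF2, by 0.28 ± 0.10 (adjusted p 0.0491, from 772 to 936), both in the authors' deposited table. Neither rise was called after the length step, while SDHC and SDHD then joined SDHAF1 as lower.

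Several values in A-375 did not pass the test but were as large as called ones in UM-UC-3. SDHD was at -0.53 ± 0.20 (adjusted p 0.0639) and BCS1L at -0.56 ± 0.28 in the authors' deposited table (adjusted p 0.180), close to their UM-UC-3 values. The largest positive value, 0.55 ± 0.31 for ATP5I, had an adjusted p of 0.261 in the authors' deposited table. The median SE over all genes was 0.28 here and 0.18 for UM-UC-3. SDHAF1 was the only gene of the 37 called in the same direction in both lines, and ATP5L the only one called in opposite directions. Of the rest, 18 were called in UM-UC-3 only, 1 (SDHAF2) in A-375 only and 16 in neither.

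The difference between the cell lines was tested gene by gene, as the UM-UC-3 minus the A-375 log2 fold change over the root of the summed squared errors. It was lower in UM-UC-3 for 6 of the 37 genes (16.2%) and higher for 0, at an adjusted p under 0.05 over 12640 genes, of which 4.12% were lower and 6.32% higher. At an unadjusted p under 0.05 it was 19 genes, a count not set beside that of all genes at this threshold. The median difference of the 37 was -0.40, against 0.09 for all genes. UQCRQ differed by -1.15 ± 0.27 (adjusted p 0.00172), from 0.37 in A-375 to -0.78 in UM-UC-3 in the authors' deposited tables. ATP5J2 differed by -1.11 ± 0.27 (adjusted p 0.00218) and ATP5L by -0.96 ± 0.24 (adjusted p 0.00325), both membrane subunits of ATP synthase. The other 3 were ATP5E (-1.09 ± 0.37, adjusted p 0.0406), UQCRB (-0.88 ± 0.30, adjusted p 0.0352) and the inhibitor ATPIF1 (-0.72 ± 0.25, adjusted p 0.0451), the last of which was called in neither line by itself. ATP5O was just outside the threshold (-0.57 ± 0.21, adjusted p 0.0512). UQCRH was not called (-0.57 ± 0.24, adjusted p 0.0928), whereas its near copy UQCRHL, not among the 37, differed by -1.53 ± 0.46 (adjusted p 0.0150).

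When the length step was applied to both tables, 2 of the 37 genes differed, ATP5E, which was also called without it, and ATP5F1 (-0.51, adjusted p 0.0444), which was not. The differences of the other 5 were then -0.44 for UQCRB (adjusted p 0.378), -0.71 for UQCRQ (adjusted p 0.0840), -0.67 for ATP5J2 (adjusted p 0.102), -0.52 for ATP5L (adjusted p 0.167) and -0.28 for ATPIF1 (adjusted p 0.541). The part of transcript length in the difference between the lines was not tested. With each table centred on its median, 11 differed rather than 6, with ATP5C1, ATP5F1, ATP5G3, ATP5H and ATP5O added.

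**Figure D3:**
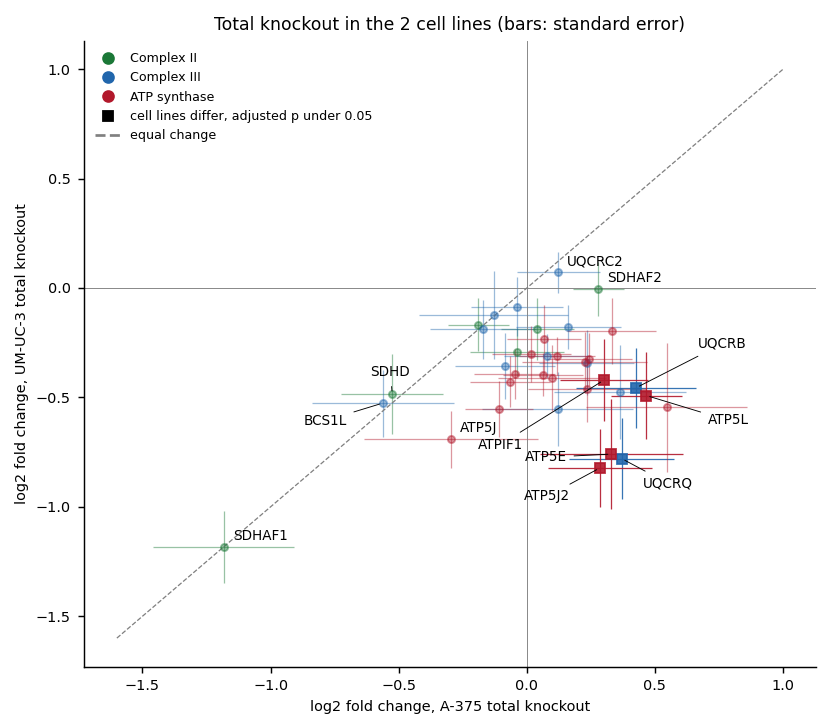
Log2 fold change of the 37 genes in the UM-UC-3 total knockout (vertical) against the A-375 total knockout (horizontal), with bars for the authors' standard error, squares for the 6 genes whose change differed between the lines and a dashed line of equal change. SDHAF1 lies on the dashed line at -1.18 in both, and the 6 squares lie to the right of 0 and under it.

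Across the 37 genes the values of the lines had a Pearson r of 0.27 and a Spearman rho of -0.13, given as a description only, since genes of 1 table share their libraries. Values were positive in A-375 and negative in UM-UC-3 for 23 genes, negative in both for 13 and positive in both for UQCRC2. With the A-375 table centred on its median, SDHB, TTC19 and ATP5A1 turned positive there, and the length step turned further uncalled values in both lines. SDHAF1, SDHD, BCS1L, SDHC, UQCC1 and UQCC2 were those nearest the line of equal change among the genes negative in both, with differences between -0.02 and 0.04. For SDHAF1 the interval of the difference (95%) ran from -0.63 to 0.63.

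The long-form knockout asked whether loss of the long form alone affects these genes in A-375. None of the 37 passed the test (DESeq2), while 0.664% of all genes were lower and 0.240% higher. At an unadjusted p under 0.05, 6 were higher and 0 lower, and the authors' q-value called 0. Over all 14156 genes, 652 were higher and 893 lower at the unadjusted p, and 37 and 99 by the q-value. The median was 0.12. The smallest adjusted p was that of ATP5J2, at 0.30 ± 0.09 in the authors' deposited table (adjusted p 0.101), and the largest positive value that of ATP5G1, 0.37 ± 0.14 (adjusted p 0.266). The most negative values were those of ATP5E, -0.39 ± 0.33 (adjusted p 0.667), and SDHAF1, -0.38 ± 0.21 (adjusted p 0.506), in the authors' deposited table. SDHAF1 had implied levels of 980 normalized counts in the parental control and 752 in the knockout, with 2 knockout libraries behind them.

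The long-form minus the total-knockout value was tested in the same way, although the A-375 tables may share control libraries, in which case the SE is too large. None of the 37 genes differed at an adjusted p under 0.05, and 5 did at an unadjusted p under 0.05. The unadjusted count was not set beside that of all genes. Of 13949 genes, 1.79% were lower and 2.66% higher. The difference was 0.80 ± 0.35 for SDHAF1 (adjusted p 0.172), 0.40 ± 0.15 for SDHC (adjusted p 0.115), 0.63 ± 0.32 for SDHD (adjusted p 0.259), 0.36 ± 0.17 for ATP5H (adjusted p 0.202) and -0.44 ± 0.19 for ATP5L (adjusted p 0.163). SDHC was called with the length step (0.52, adjusted p 0.0278).

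Several of these genes have a neighbour that starts close by on the other strand. Whether such a pair points apart or overlaps was not checked. In GENCODE release 29, 15 of the 37 had a protein-coding partner starting within 1000 bases in the opposite direction, and 14 of the partners were listed in the UM-UC-3 table. There 9 of the 15 members and 4 of the 14 partners were lower, and 3 partners were higher, against 14.2% lower and 17.0% higher over all genes of that table. The 4 lower partners all stood beside a lower member. They were TIMM8B, a mitochondrial import chaperone beside SDHD (-0.82 ± 0.21, adjusted p 0.000799), HAUS1, a spindle protein beside ATP5A1 (-0.94 ± 0.18, adjusted p 2.97e-06), WDR77 beside ATP5F1 (-0.43 ± 0.12) and KCTD2 beside ATP5H (-0.31 ± 0.09), in the authors' deposited table. Of these members, SDHD and ATP5H were not called with the length trend removed.

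The opposite was seen at ATP5J, whose nearest annotated start in GENCODE lies 255 bases from one of GABPA on chromosome 21. GABPA, the partner subunit of GABPB1, rose by 1.43 ± 0.19 (adjusted p 6.25e-12) in the UM-UC-3 table of the authors' deposited tables, while ATP5J fell by 0.69. This was the only pair called in opposite directions. Of the other higher partners in UM-UC-3, LRRC41 (0.23 ± 0.09, adjusted p 0.0325) stood beside UQCRH at -0.34 (adjusted p 0.0618). GID4 (0.32 ± 0.10, adjusted p 0.00764) stood beside ATPAF2 at -0.30 (adjusted p 0.0597), all in the authors' deposited table (DESeq2). Both of these members were lower by the authors' q-value under 0.05. In the A-375 total knockout GABPA rose by 0.81 ± 0.22 (adjusted p 0.00508) and ATP5J was at -0.30 ± 0.34 in the authors' deposited table (adjusted p 0.621). The downstream ATP5J promoter window holds 3 matches, at 180, 162 and 8 bases before its RefSeq start. In the other ATP5J window, which has a start further upstream, matches lie 30 and 12 bases before that start. Of the 15 partners, 2 were higher in A-375, GABPA and GDF9. The library kit marks strand, but the sources used here do not say whether the counting used it, so reads of overlapping neighbours may be mixed.

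**Figure D4:**
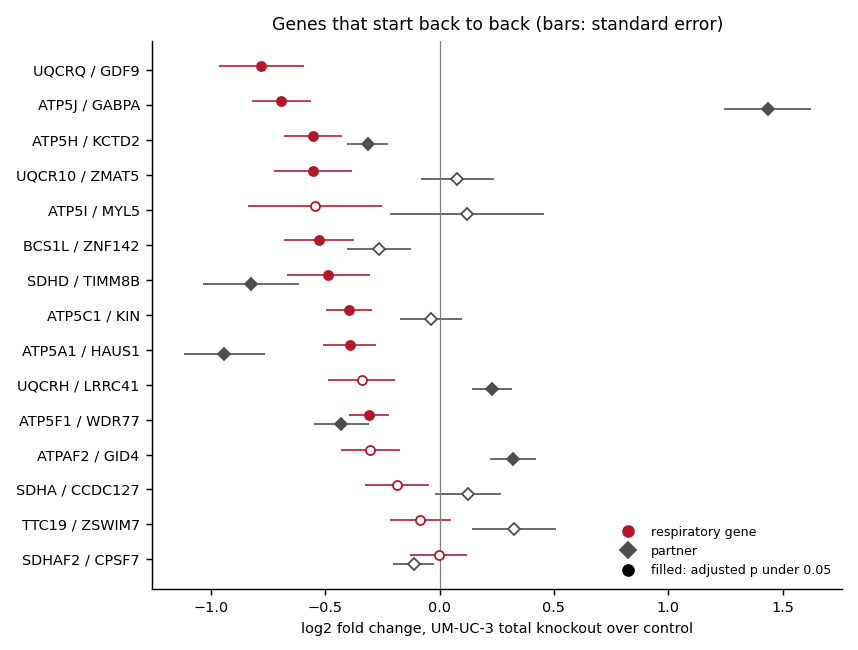
Log2 fold change in the UM-UC-3 total knockout for 15 members (red circles) and the protein-coding genes that start within 1000 bases of them in the opposite direction (grey diamonds), with bars for the authors' standard error and filled symbols for an adjusted p under 0.05; GDF9 was not listed. GABPA stands at 1.43 beside ATP5J at -0.69, and 4 partners are lower beside a lower member.

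Members with and without a motif in their promoter window were set side by side. In UM-UC-3, 9 of the 13 genes with a match were lower (median -0.49), as were 6 of the 17 with none (median -0.30) and 5 of the 7 without a window (median -0.43), and the difference was not tested. SDHAF2, whose window holds 6 matches, some of them overlapping, was at -0.0036 in UM-UC-3 and rose by 0.28 in A-375. SDHAF1, with 1 match, was lower in both lines (authors' deposited tables). In the A-375 total knockout the medians were 0.23 with a match and 0.08 with none.

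Other genes of the same complexes, from a list of 11 names of which 10 were listed in UM-UC-3, moved in both directions. USMG5, a small membrane subunit of ATP synthase, fell by 1.08 ± 0.14 (adjusted p 1.67e-12) in the UM-UC-3 table of the authors' deposited tables, and C14orf2, another, fell by 0.52 ± 0.18 (adjusted p 0.0140). The complex II assembly factor SDHAF3 fell by 0.60 ± 0.18 in the authors' deposited table (adjusted p 0.00533), whereas SDHAF4, another such factor, rose by 0.51 ± 0.17 (adjusted p 0.0148) and ATP5S by 0.46 ± 0.16 (adjusted p 0.0190). For A-375, 10 of the 11 were listed and 0 called (DESeq2; q-value also 0), with 1 higher at an unadjusted p under 0.05 in the total knockout and 0 in the long-form knockout. Subunits encoded by mitochondrial DNA were searched for by their MT- names, and 0 were listed in any of the 3 comparisons.

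Genes of coenzyme Q synthesis and cytochrome c, the carriers that complexes II and III use, gave 3 lower and 2 higher of 15 in UM-UC-3 and 1 lower and 0 higher of 15 in the A-375 total knockout, where the q-value gave 1 higher and an unadjusted p under 0.05 gave 3 (DESeq2). Over all genes, 14.2% were lower and 17.0% higher in UM-UC-3, and 5.74% lower and 5.07% higher in A-375. At an unadjusted p under 0.05, 1999 of all 14330 A-375 genes were lower and 1631 higher, and by the q-value 1161 and 1014. PDSS1, which helps to make the side chain of coenzyme Q, was lower in both lines, at -2.10 ± 0.28 in UM-UC-3 (adjusted p 1.5e-11) and -1.64 ± 0.39 in A-375 (adjusted p 0.000975), both from the authors' deposited tables. The methyltransferase COQ3 fell by 0.66 ± 0.14 (adjusted p 2.39e-05) in UM-UC-3 and COQ10B, a coenzyme Q binding protein, rose by 0.97 ± 0.15 in the authors' deposited table (adjusted p 1.54e-08). There ADCK3 also rose, by 0.52 ± 0.15 (adjusted p 0.00311), and COQ10A fell by 0.74 ± 0.22 (adjusted p 0.00577). Of the neighbouring complexes, 17 of 37 complex I subunits (median -0.37) and 7 of 11 complex IV subunits (median -0.50) were lower in UM-UC-3, and 0 higher also at an unadjusted p under 0.05. In the A-375 total knockout 3 of 35 complex I subunits were higher and 0 lower. At an unadjusted p under 0.05 these counts were 5 and 2, and by the q-value 4 and 1 (DESeq2). Of 11 factors of the cristae and of supercomplexes, 3 were lower and 0 higher in UM-UC-3 (median -0.03, 4 positive, and 0 higher also at an unadjusted p under 0.05), and 1 was lower and 1 higher in A-375. COX7A2L, a supercomplex factor, was the higher one, at 0.44 ± 0.13 in the authors' deposited table (adjusted p 0.0151). IMMT, the core of the MICOS complex, was lower in both lines, at -0.45 ± 0.08 (adjusted p 2.28e-06) in UM-UC-3 and -0.38 ± 0.13 (adjusted p 0.0304) in A-375 in the authors' deposited tables.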

How the data were processed

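RNA was sequenced from 33 libraries, placed in groups by the line and genotype in their labels. Per the submitters' processing notes, HISAT2, SAMtools, StringTie and DESeq2 were used with hg38; no versions are given there. DESeq2 output was deposited by the authors as 3 tables, and its annotation, gene filter, model and controls were not given in the sources used here. Their signal column is the mean of counts divided by size factors over all samples, per the file headers. The log2 columns give the fold change and standard error from the authors' fits, and the Wald statistic is a score of the authors. Raw, Benjamini-Hochberg adjusted and q-value columns of p-values were deposited, per the file headers. Gene names stored as dates (23, 20 and 24 in the A-375 total, UM-UC-3 and A-375 long-form tables) were tested but not named.

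From the tables were computed counts of called genes (the authors' adjusted p under 0.05), differences between tables over genes whose mean was 10 or more in both (normal p, Benjamini-Hochberg adjustment), and implied control and knockout levels from the mean, the fold change and the numbers of libraries. Levels per length use the median coding transcript of GENCODE release 29 on hg38, which also gave neighbours. The difference test was tested on simulated data, with planted differences larger than that of any member and errors drawn from the authors' standard errors. This says nothing about smaller differences or about standard errors that are too small. Python 3.11.15, numpy 2.4.6, pandas 2.3.3, scipy 1.17.1 and matplotlib 3.10.9 were used. Alternatives were the q-value, a threshold of 0.01, a minimum of 1.5-fold, centring, a count minimum, other controls and removal of the length trend in 20 groups of genes. Depth per sample is unknown, so precision is the authors' standard error. The members, their role groups and all gene lists were chosen with earlier results of these data known. Full values are given for members called in a table, the largest rise and fall in each, the ATP5G genes and members that differed between tables, and for some genes of the other lists.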

Additional observations from a re-analysis of the deposited data

Results flagged for a closer look

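For 6 of the 37 genes the change after total knockout differed between the cell lines by a test of the difference itself, UM-UC-3 minus A-375. The log2 differences were -0.88 for UQCRB, -1.15 for UQCRQ, -1.09 for ATP5E, -1.11 for ATP5J2, -0.96 for ATP5L and -0.72 for ATPIF1. The values in A-375 were positive and those in UM-UC-3 negative for each of the 6. With the length trend removed from both tables, a step chosen after the data were seen, ATP5E was still called and the other 5 were not, at -0.44 for UQCRB, -0.71 for UQCRQ, -0.67 for ATP5J2, -0.52 for ATP5L and -0.28 for ATPIF1.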

How the results depend on the processing

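No paired analysis was possible because the tables hold no value per library, and for the same reason no library could be left out in turn. Removal of the length trend was chosen after the data were seen. In UM-UC-3, 11 of the 37 genes were lower at an adjusted p under 0.01, 5 with a minimum of 1.5-fold and 11 with the length trend removed, rather than 20. Centring on the median raised the UM-UC-3 count to 25, and the q-value raised it to 26. In the A-375 total knockout 2 were lower by the q-value and 3 with the length trend removed, rather than 1, and 0 were higher at 0.01, with 1.5-fold or with the length trend removed, rather than 2. The difference between the cell lines gave 11 genes with both tables centred and 2 with the length trend removed, rather than 6. The long-form minus total difference gave 1 higher gene with the length trend removed, rather than 0. The cause of these shifts was not tested. Counts adjusted over genes of mean 10 or more, or over all genes in both tables, moved by less than 1.5 times. Some uncalled values changed sign. Centring gave 0.016 for SDHB, 0.016 for TTC19 and 0.0058 for ATP5A1 in the A-375 total knockout. It gave -0.062 for SDHC, -0.044 for SDHD, -0.047 for BCS1L and -0.078 for UQCC2 as differences between the cell lines, and -0.034 for UQCR10, -0.057 for ATP5C1 and -0.052 for ATP5J2 as long-form differences. Removal of the length trend gave -0.052 for UQCR10, 0.020 for TTC19, 0.023 for ATP5A1, -0.073 for ATP5D, -0.11 for ATP5G2 and -0.073 for ATPAF2 in the A-375 total knockout, 0.099 for SDHC, 0.26 for SDHAF2, 0.033 for UQCC2 and 0.032 for ATP5G2 in UM-UC-3 and -0.024 for CYC1, -0.026 for UQCRB and -0.019 for ATP5L in the long-form knockout. It gave 0.063 for SDHAF1, 0.16 for SDHAF2, 0.048 for UQCRC2, 0.14 for ATP5G2 and 0.041 for ATP5J as differences between the cell lines, and -0.013 for SDHA, -0.0048 for ATP5A1, -0.026 for ATP5C1, 0.12 for ATP5D and 0.022 for ATP5G3 as long-form differences. With the ROSA26_KO libraries added to the controls, 8 of 28 implied levels moved by more than the standard error of the log2 fold change and 20 by less.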

Other observations

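Levels per length are given over the 37 genes as a whole, across complexes and assembly factors. With parental libraries as the only controls, the implied control level ran from 357 normalized counts per kilobase for ATPAF2 to 8103 for ATP5B in the A-375 total-knockout table, from 639 for SDHAF1 to 31703 for ATP5B in the UM-UC-3 table, and from 877 for SDHAF1 to 21532 for ATP5B in the long-form table, all worked out from the authors' deposited tables. The tables were normalized separately, so levels are not compared between them.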
